A study of Mus musculus with 27 samples.

Results

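The m6A writer genes described here are 9 mouse genes chosen by name: Mettl3, Mettl14, Wtap, Rbm15, Rbm15b, Zc3h13, Virma (listed in the tables under its older symbol 1110037F02Rik), Cbll1 and Mettl16. All 9 were present in each of the 4 count tables, which together list 20847 genes, and all 9 passed the filter on low counts in each of the 4 experiments. The study removed either the catalytic writer gene Mettl3 or the Ythdf genes, which encode cytoplasmic readers of the mark, and sequenced RNA from 27 libraries in 12 groups. The embryonic stem cells were of KH2 background (C57BL/6 x 129/Sv) and grown with serum and LIF; they were WT, Ythdf1-/-, Ythdf2-/-, Ythdf3-/-, Ythdf1/2/3-triple-KO or Mettl3-/-, with 2 libraries (A and B) each, made from polyadenylated RNA. Germinal vesicle (GV) oocytes came from mice with floxed Mettl3 on both alleles, either Mettl3f/f Zp3-Cre+ (3 libraries) or Mettl3f/f Zp3-Cre- (4 controls, which carry the floxed alleles too), on a mixed BDF1, C57BL/6 and Zp3-Cre line background. Zp3-Cre acts in the growing oocyte, so other cells of those ovaries keep Mettl3, and each oocyte library pooled the oocytes of 1 mouse. Post-GV oocytes came from Ythdf2-/- mice (2 libraries) and from Ythdf2+/- controls (3 libraries), which already lack 1 copy; sorted round spermatids came from Ythdf2-/- mice (2 libraries) and from 1 Ythdf2+/+ control, and both sets were on a CB6F1 X C57BL/6 background. For ages, the number of clones behind each stem cell genotype and the deleted exons, the sources used here give nothing.

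N6-methyladenosine (m6A) is a methyl mark that is placed on adenosines of nascent mRNA in the nucleus. Mettl3 encodes the subunit that transfers the methyl group from S-adenosylmethionine, and Mettl14 encodes its obligate partner, which has the same fold, does not catalyse and helps hold the RNA. Wtap encodes the scaffold that keeps this pair in nuclear speckles and joins it to the other subunits, namely the RNA-binding adaptors encoded by Rbm15 and Rbm15b, the large scaffold encoded by Virma, the zinc finger protein encoded by Zc3h13 and the E3 ubiquitin ligase Hakai encoded by Cbll1. Mettl16 encodes a separate methyltransferase that marks U6 snRNA and hairpins of the Mat2a mRNA and is not a subunit of the complex. In mouse embryonic stem cells the mark is known for its part in the exit from pluripotency, and in oocytes for its part in maturation and in the clearing of maternal transcripts.

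The coding sequences around the catalytic motif are shown because the motif differs between the active enzyme, its inactive partner and the separate enzyme. A link between the motif and RNA levels was not tested. They were read from the GENCODE M21 transcripts on GRCm38, 5′ to 3′ along each gene's strand, and the capitals mark the codons of the motif named. The Mettl3 stretch lies in exon 6 of 11 at chr14:52297557-52297616 (minus strand, motif DPPW), the Mettl14 stretch in exon 7 of 11 at chr3:123374781-123374840 (minus strand, motif EPPL in the same place of the fold) and the Mettl16 stretch in exon 5 of 10 at chr11:74792259-74792318 (plus strand, motif NPPF).
Mettl3: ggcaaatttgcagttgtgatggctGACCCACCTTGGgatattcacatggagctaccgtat
Mettl14: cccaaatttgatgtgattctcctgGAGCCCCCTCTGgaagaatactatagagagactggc
Mettl16: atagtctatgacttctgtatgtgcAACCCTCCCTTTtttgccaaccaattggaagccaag

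A second set shows the copy of GGACT, the commonest form of the m6A consensus, that lies nearest to the stop codon in the 3 genes that changed most clearly besides Mettl3. The capitals mark GGACT on the sense strand. In Wtap the A of the motif lies 34 bases before the end of the stop codon, in the last of 8 exons (chr17:12967488-12967516, minus strand). In Rbm15 it lies 1000 bases before it in coding exon 1 of 2 (chr3:107331178-107331206, minus strand), and in Cbll1 784 bases after it in the 3′ UTR of exon 6 of 6 (chr12:31486481-31486509, minus strand).
Wtap: tcagaatggcttGGACTcaaatgtaaatg
Rbm15: cagaggtgatcgGGACTtgcccagcagca
Cbll1: cattattttataGGACTgtttaaagttgt

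All 9 representative transcripts hold GGACT, from 2 copies in Rbm15 to 14 in Mettl16, against 92.6% of the 10943 genes that are in all 4 tables with a coding transcript. Per kilobase the members ranged from 0.461 copies in Rbm15 to 2.43 in Wtap, beside a median of 1.05 over those genes. A match of these letters is a description of the sequence, and no file used here measured methylation. Of the genes that rose most, Wtap had the highest density of the 9 and Rbm15 the lowest, and Cbll1, with 1.28 per kilobase, lay between the median and the upper quartile of 1.51.

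Stem cell libraries were shallow, with totals of 612598 to 1111764 counts. GV libraries held 6484397 to 18181397 counts, post-GV libraries 12409822 to 25015081 and round spermatid libraries 18843689 to 32759740. The 6 stem cell pairs of replicates differed by less than counting noise, with a mean chi-square per gene of 0.675 to 0.833 where counting alone gives 1, so stem cell errors below are those of counting and p-values there may be too small for separately grown cultures. Defining markers matched the labelled cells: all 6 stem cell markers were present in every stem cell group, all 8 oocyte markers in every oocyte group and all 8 spermatid markers in both spermatid groups. The counts do not check the Ythdf genotypes, since whole-gene counts also hold RNA from a disrupted gene: log2 changes of the targeted gene were 0.00 for Ythdf1, -0.85 for Ythdf2 and 0.14 for Ythdf3 in the stem cell libraries labelled as single knockouts, 0.84 for Ythdf2 in the post-GV oocytes labelled Ythdf2-/- and -0.02 in the round spermatids labelled Ythdf2-/-. None was called, and in the triple knockout the 3 genes differed by -0.13 (Ythdf1), 0.36 (Ythdf2) and 0.06 (Ythdf3), also without a call. The Ythdf knockouts are therefore described by their labels throughout.

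In stem cells the loss of Mettl3 was accompanied by more RNA of the scaffold and of an adaptor, while the partner Mettl14 stayed near its wild-type level. Mettl3 fell to 0.119 of WT, Wtap rose 2.21-fold, Rbm15 rose 2.16-fold and Zc3h13 rose 1.33-fold in Mettl3-/- cells. These 4 of 9 members passed the test (edgeR's quasi-likelihood test, adjusted p under 0.05 over 11951 genes). Of all genes 30.4% passed, 15.2% upward and 15.1% downward. The 1 fall is Mettl3 itself, the targeted gene, so its call was set by the design. The 3 rises are to be read against the upward share. The median log2 change was 0.18 over the 9 members, Mettl3 included, and 0.00 over all genes. Low sums of markers of other cells differed between these groups: 5 Sertoli cell markers (3 with counts, Cldn11 and Sox9 at 0 or not listed) summed to 58.1 and 59.6 CPM in WT and 21.1 and 29.0 CPM in Mettl3-/-, where CPM is the count relative to the TMM-scaled library total. The 8 oocyte markers (2 with counts) summed to 31.7 and 36.5 CPM in WT and 50.3 and 69.5 CPM in Mettl3-/-, and the 5 spermatocyte genes (4 with counts) to 259 and 271 CPM against 185 and 233 CPM. Their part in the results was not tested.

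Mettl3 itself lies at chr14:52294841-52305128 on the minus strand of GRCm38. Its counts were 156 and 154 in the WT libraries and 11 and 13 in the Mettl3-/- libraries, or 139 and 136 CPM against 17.8 and 15.1 CPM. The groups did not overlap, and the change was -3.07 on the log2 scale (SE 0.31, adjusted p = 1.03e-23). The 3′ end of Mettl3 shares 933 exon bases with Tox4 on the opposite strand, and no source used here says whether the authors counted by strand. In these cells Tox4 fell by 1.16 on the log2 scale (SE 0.25, adjusted p = 8.34e-06), and what part shared reads had in either value was not tested.

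Mettl14, the non-catalytic partner, gave 103 and 104 CPM in WT and 95.6 and 114 CPM in Mettl3-/- cells. The 2 groups overlapped, and the log2 change of 0.03 had a 95% interval from -0.26 to 0.33.

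Wtap, the scaffold (chr17:12966796-12994169, minus strand), had 158 and 161 counts in WT and 211 and 251 in the smaller Mettl3-/- libraries. On the CPM scale both knockout libraries, at 342 and 291, stood above both WT libraries, at 141 and 142. The log2 change was 1.14 (SE 0.11, adjusted p = 6.43e-18) and stayed called in 10 of 10 alternative analyses.

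Rbm15, which encodes an RNA-binding adaptor (chr3:107325421-107333673, minus strand), moved likewise. Its level was 90.7 and 88.0 CPM in WT and 203 and 187 CPM in Mettl3-/- cells, with no overlap. The log2 change was 1.11 (SE 0.13, adjusted p = 1.56e-13), again called in 10 of 10 alternatives. Its paralog Rbm15b was at 140 and 138 CPM in WT and 173 and 163 CPM in the knockout; those groups did not overlap, but the log2 difference of 0.27 (95% interval 0.03 to 0.51) missed the threshold with an adjusted p of 0.083.

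Zc3h13 was at 80.1 and 78.3 CPM in WT and 118 and 96.2 CPM in Mettl3-/- cells. Its log2 change of 0.41 (SE 0.16) passed narrowly, with an adjusted p of 0.035. The call was lost with DESeq2 (adjusted p = 0.312) and when Mettl3-/- replicate A (0.28 on the log2 scale, adjusted p = 0.323), WT replicate A (adjusted p = 0.095) or WT replicate B (adjusted p = 0.115) was left out. The authors' deposited table gives adjusted p-values of 2.5e-08 for Wtap, 2.68e-05 for Rbm15 and 0.315 for Zc3h13.

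The remaining members did not pass. Cbll1 differed by 0.18 (95% interval -0.19 to 0.55), Mettl16 by 0.14 (-0.09 to 0.37) and Virma by 0.10 (-0.54 to 0.74) on the log2 scale. Virma had 15 to 25 counts in these 4 libraries, so its interval reaches past a 1.5-fold rise at this depth.

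**Figure D1:**
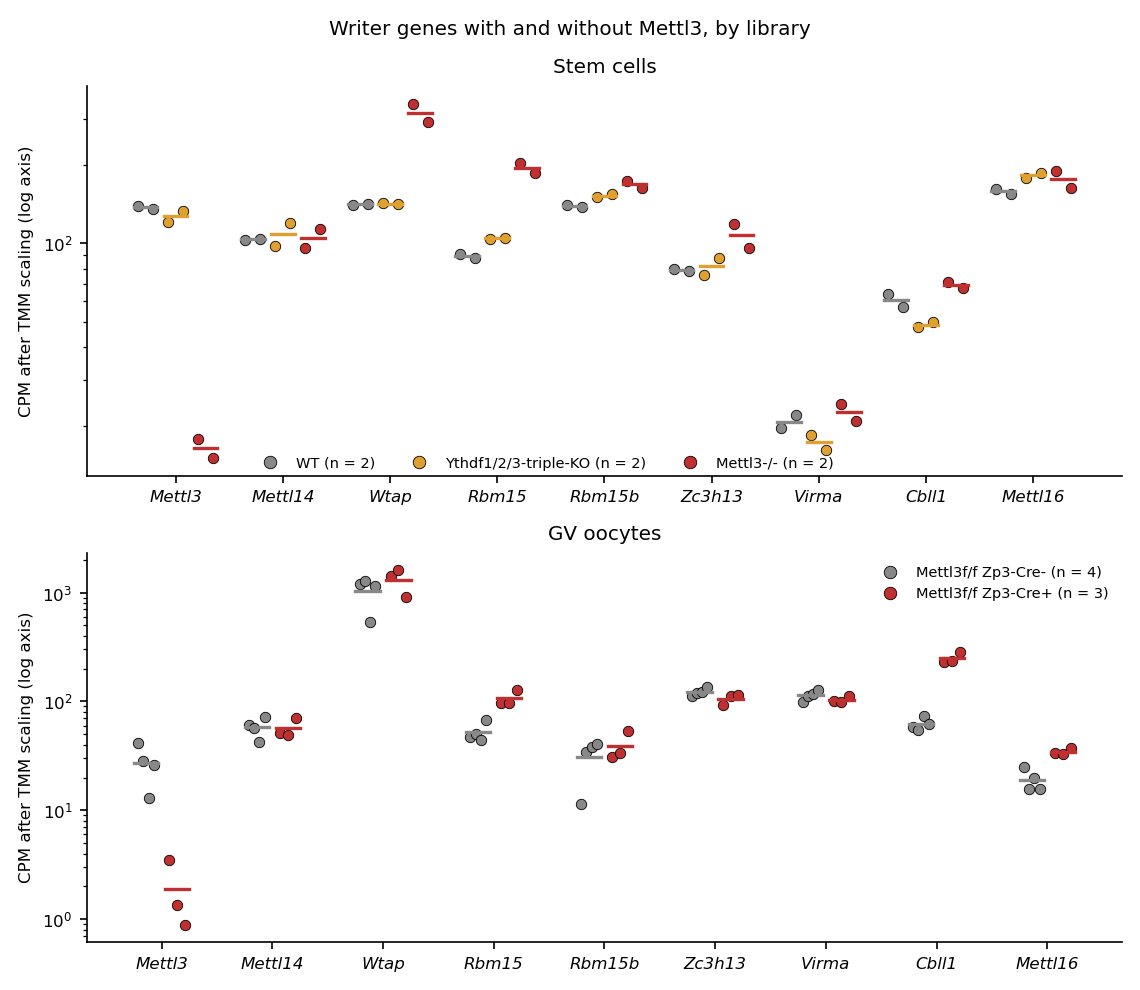
CPM after TMM scaling on a log axis for each of the 9 genes, with points for libraries and bars for group means, in stem cells (top) and GV oocytes (bottom). Mettl3 is lower in every knockout library; in stem cells Wtap and Rbm15 stand above both other groups in the Mettl3-/- libraries, and in GV oocytes Cbll1, Rbm15 and Mettl16 stand above every control in the Cre+ libraries.

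Loss of the 3 readers together was not accompanied by rises of the size seen in Mettl3-/- stem cells. Wtap was at 142 and 142 CPM in the libraries labelled Ythdf1/2/3-triple-KO, against 141 and 142 CPM in WT. Rbm15 was at 103 and 105 CPM, above both WT libraries at 90.7 and 88.0 CPM. Its log2 difference of 0.22 (95% interval -0.08 to 0.53) was not called. Set directly against the triple knockout, a comparison added after the data were seen, Mettl3-/- cells had 1.14 more Wtap on the log2 scale (SE 0.12, adjusted p = 2.49e-15) and 0.89 more Rbm15 (SE 0.15, adjusted p = 3.18e-08), with Mettl3 lower by 2.96. Those 3 of 9 members were called among 19.0% of all genes, 8.50% higher and 10.5% lower in Mettl3-/- cells. Mettl3 is the targeted gene, so its call among them was set by the design. Zc3h13 (0.36, 95% interval 0.01 to 0.71, adjusted p = 0.147) and Cbll1 (0.49, 0.05 to 0.93, adjusted p = 0.111) were not called in it.

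None of the 9 members was called in any Ythdf knockout of stem cells by edgeR. The libraries labelled Ythdf1-/-, Ythdf2-/- and Ythdf3-/- had 3.45%, 1.91% and 2.84% of all genes called, and the triple knockout 25.1%. At an unadjusted p under 0.05 the members gave 0, 1, 0 and 0 in those 4 comparisons, beside 1775, 1412, 1731 and 4254 of all 11951 genes, and DESeq2 also called none. The comparisons share the 2 WT libraries.

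In these 4 knockouts Mettl3 differed from WT by -0.11 to 0.00, Mettl14 by -0.04 to 0.13 and Wtap by -0.13 to 0.01 on the log2 scale, each with an SE of 0.12 to 0.15. Across those genes and knockouts the 95% intervals reached no lower than -0.37 and no higher than 0.42, short of a 1.5-fold change between these libraries. They hold counting error only and no spread between separately grown cultures, so they cannot exclude such a change between genotypes. The adaptor Rbm15 differed by 0.05 to 0.22, with intervals reaching up to 0.53 in the triple knockout, and Rbm15b by -0.13 to 0.13. The 1 member with an unadjusted p under 0.05 was Zc3h13 in the Ythdf2-/- libraries, at 105 and 103 CPM against 80.1 and 78.3 CPM in WT. The 2 groups did not overlap, and the log2 difference was 0.38 (SE 0.15, adjusted p = 0.217). In that knockout 4 of 9 members had groups without overlap, beside 46.4% of all tested genes.

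Cbll1 was lower than WT in each of the 4, by 0.11 to 0.36 on the log2 scale, with adjusted p-values from 0.295 to 0.884. Its 8 Ythdf knockout libraries ranged from 44.1 to 58.0 CPM, against 64.0 and 57.2 CPM in WT, with which 1 library overlapped. Mettl16 differed by -0.04 to 0.21, and Virma, the least counted member with 12 to 25 counts a library, by -0.50 to 0.03 with SEs of up to 0.36.

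In GV oocytes, loss of Mettl3 was accompanied by more RNA of Cbll1, Rbm15 and Mettl16. Cbll1 was 4.01-fold higher, Rbm15 2.06-fold and Mettl16 1.82-fold, and Mettl3 fell to 0.073 of the controls. These were 4 of 9 members called, 3 upward and 1 downward, beside 28.8% of 13551 genes called, 15.4% upward and 13.4% downward. The 1 downward call is Mettl3 itself, the targeted gene, so it was set by the design. The median log2 change was 0.34 over the members, Mettl3 included, and 0.04 over all genes.

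Mettl3 was at 41.9, 28.2, 13.0 and 26.0 CPM in Cre- libraries 1 to 4 and at 3.46, 1.36 and 0.888 CPM in Cre+ libraries 1 to 3. Every Cre+ library lay below every Cre- library, with Cre- replicate 3 the lowest control. The log2 change was -3.77 (SE 0.57, adjusted p = 0.00182). The authors' deposited table gives -3.87 with an adjusted p of 0.069. Tox4, on the other strand, rose here by 1.54 on the log2 scale (SE 0.22, adjusted p = 0.00148), and SMART-seq2 libraries do not mark the strand, so reads in the shared 933 bases cannot be told apart. Mettl14 again stayed level, at 60.3, 56.6, 42.3 and 72.5 CPM in controls and 50.8, 48.9 and 70.5 CPM in Cre+ oocytes, with a log2 difference of -0.03 (95% interval -0.58 to 0.53).

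Cbll1 (chr12:31484829-31499616, minus strand), the ubiquitin ligase subunit, had the largest rise of the 9. The controls gave 58.4, 55.2, 73.5 and 62.2 CPM and the Cre+ oocytes 229, 235 and 284 CPM. The lowest Cre+ library was thus well above the highest control, and the log2 change of 2.00 (SE 0.20, 95% interval 1.56 to 2.44, adjusted p = 0.00029) stayed called in 13 of 13 alternatives. The authors' deposited table gives 1.93 with an adjusted p of 0.016, under 0.05 for no other member. Cbll1 shares 704 exon bases with Gm29542, an antisense gene that was not among the genes tested in any comparison. Reads of the pair cannot be told apart in these libraries.

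Rbm15 was at 47.3, 50.3, 44.3 and 67.0 CPM in controls and 96.5, 97.3 and 128 CPM in Cre+ oocytes. The groups did not overlap, and the log2 change was 1.04 (SE 0.22, adjusted p = 0.00795). Mettl16 (chr11:74770830-74828525, plus strand) was at 24.8, 15.7, 19.8 and 15.6 CPM in controls and 33.8, 32.9 and 37.2 CPM in Cre+ oocytes, also without overlap. Its log2 change was 0.87 (SE 0.26, adjusted p = 0.031).

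The Mettl16 call was lost in 6 of 13 alternatives, with log2 changes of 0.67 to 0.85 and adjusted p-values from 0.082 to 0.149: without Cre+ replicate 1, 2 or 3, without Cre- replicate 2 or 4, and without Cre- replicates 2 and 3 together. Those last 2 are the controls with the highest summed level of the 7 granulosa and cumulus cell markers, and without them Rbm15 missed the threshold as well (0.80, adjusted p = 0.074) while Cbll1 kept it (1.94, adjusted p = 0.00166). All 7 markers had counts in both groups, with sums of 225 to 1145 CPM in the controls and 11.2 to 146 CPM in Cre+ oocytes; the part of these cells in the result was not tested beyond that. The summed level of 5 listed spermatocyte genes, of which 4 had counts and Spo11 was at 0 or not listed, was 37.9 to 48.7 CPM in controls and 149 to 198 CPM in Cre+ oocytes; its part was not tested.

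Wtap, in contrast to stem cells, was not called. Its level was 1193, 1282, 538 and 1147 CPM in controls and 1407, 1605 and 915 CPM in Cre+ oocytes. The groups overlapped, and the log2 difference was 0.34 (95% interval -0.34 to 1.01, adjusted p = 0.43). That interval takes in 0 and overlaps the stem cell interval of 0.94 to 1.35, and the difference between the cell types was not tested. Cbll1 was called in oocytes and not in stem cells, where its interval ended at 0.55 and its oocyte interval began at 1.56; the difference itself was not tested. Zc3h13 (-0.21), Virma (-0.13) and Rbm15b (0.34) had overlapping groups and were not called.

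**Figure D2:**
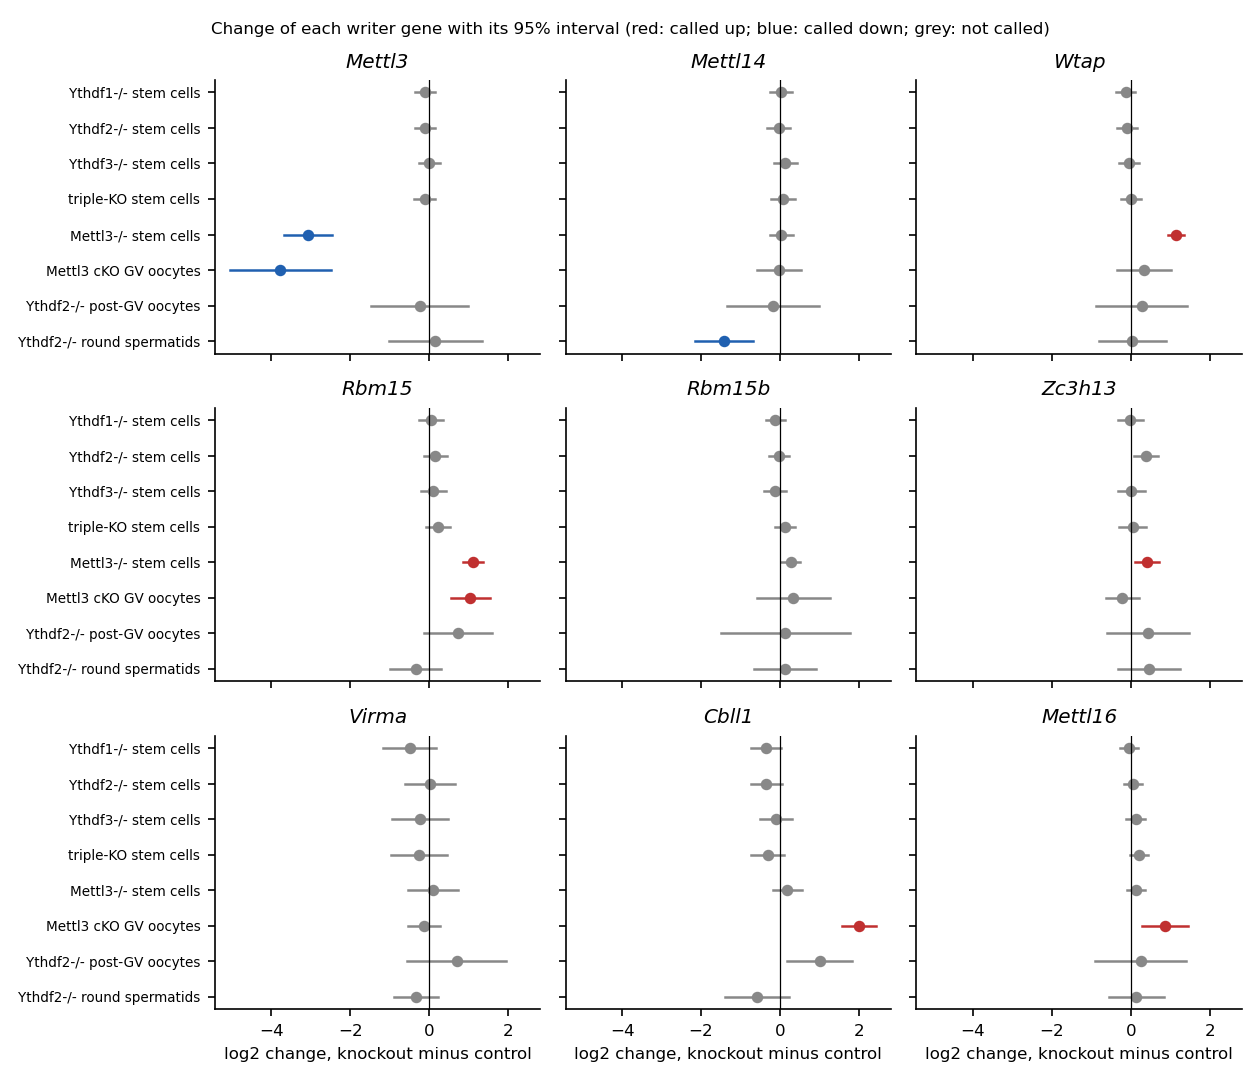
Log2 change (knockout minus control, horizontal axis) of each of the 9 genes in the 8 comparisons, with 95% intervals from the fit; red marks calls upward, blue calls downward and grey values that were not called. Rbm15 is the 1 gene called upward in both Mettl3 losses, and no gene is called in the 4 Ythdf knockouts of stem cells.

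In post-GV oocytes no gene of 13910 was called between Ythdf2-/- and Ythdf2+/- by edgeR (0%), with 782 genes at an unadjusted p under 0.05, and DESeq2 called 94, none a member. The authors' own batch adjustment splits the 5 libraries into 2 batches, the first with Ythdf2-/- replicate 1 and Ythdf2+/- replicates 1 and 2, the second with Ythdf2-/- replicate 2 and Ythdf2+/- replicate 3. With batch as a term 258 genes were called, and within the first batch 666, again with 0 members.

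Cbll1 had the lowest unadjusted p among the members. The heterozygotes gave 37.9, 41.3 and 39.9 CPM and the Ythdf2-/- oocytes 77.2 and 81.7 CPM. The groups stood clearly apart, with a log2 difference of 1.01 (SE 0.34, unadjusted p = 0.024, adjusted p = 0.839), and within the batches the log2 ratio was 0.96 and 1.04. With the batch term the adjusted p was 0.158.

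Rbm15 also had no overlap, at 44.2, 56.7 and 50.2 CPM in heterozygotes and 75.7 and 90.4 CPM in Ythdf2-/- oocytes. Its log2 difference was 0.73 (SE 0.36, adjusted p = 0.848), with within-batch ratios of 0.58 and 0.85. The authors' deposited table gives adjusted p-values of 0.151 for Cbll1 and 0.455 for Rbm15.

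The other 7 members overlapped between the genotypes. The 2 of 9 members without overlap between the genotypes compare with 21.3% of all tested genes in this comparison. For Wtap, Zc3h13, Virma, Mettl14 and Rbm15b both libraries of the second batch were the highest. How many of all genes were split by batch in that way was not counted, so this is not shown to be particular to the members. Wtap was at 2018, 1741 and 3561 CPM in heterozygotes and 2395 and 3490 CPM in Ythdf2-/- oocytes. Virma was at 107, 73.3 and 179 CPM against 131 and 258 CPM, with within-batch log2 ratios of 0.54 and 0.52. Rbm15b went in opposite directions, with ratios of -1.01 and 0.41. Mettl3 and Mettl14 did so too (0.20 and -0.87; 0.11 and -0.67), while Zc3h13 gave 0.47 and 0.19 and Mettl16 0.55 and -0.16. Granulosa marker sums were 28.0 and 96.0 CPM in Ythdf2-/- and 85.9 to 216 CPM in heterozygotes, with 6 of 7 markers counted and Amh at 0 or not listed. The sum over 5 genes listed as Leydig cell markers was 942 to 3427 CPM in the first batch and 35.0 to 47.8 CPM in the second. Of these 5, Cyp11a1, Hsd3b1 and Star were counted, and Cyp17a1 and Insl3 were at 0 or not listed. Leydig cells are cells of the testis, so in oocytes this sum is a level of those 3 genes and does not mark Leydig cells. The 8 oocyte markers summed to 9601 and 9749 CPM in Ythdf2-/- and to 4122 to 6714 CPM in heterozygotes. The part of these in the Cbll1 and Rbm15 values was not tested.

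In round spermatids 1 of 9 members was called, Mettl14, which was lower in Ythdf2-/-. Of all 16031 tested genes 4.90% were called, and 2.64% were called downward. Mettl14 (chr3:123368297-123386108, minus strand) had 802 counts, 25.7 CPM, in the lone Ythdf2+/+ library and 209 and 189 counts, 11.04 and 8.18 CPM, in the Ythdf2-/- libraries. Both knockout libraries were below the control, and the log2 change was -1.41 (SE 0.37, adjusted p = 0.00995), which takes the control to vary like the knockouts. DESeq2 gave -1.45 with an adjusted p of 0.056, and the authors' deposited table gives -1.45 with an adjusted p of 0.07; neither passes 0.05.

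Its partner Mettl3 was at 3.36 CPM in the control and 4.07 and 3.38 CPM in Ythdf2-/-, a log2 difference of 0.15 (95% interval -1.03 to 1.33). Wtap was at 9.70 CPM against 10.6 and 9.27 CPM. Cbll1, at 13.6 CPM against 8.77 and 9.44 CPM, and Virma, at 66.9 CPM against 57.3 and 48.4 CPM, were lower in both knockout libraries without a call (adjusted p = 0.501 and 0.588). Zc3h13 was higher in both, at 18.4 and 14.1 CPM against 11.8 CPM, also without a call (adjusted p = 0.602). Rbm15 (-0.34), Rbm15b (0.13) and Mettl16 (0.14) had intervals that spanned 0. In all, 7 of 9 members had both knockout libraries on the same side of the lone control, beside 74.8% of all tested genes. The summed level of 5 spermatocyte markers was 370 and 439 CPM in Ythdf2-/- and 576 CPM in the control, and that of 4 elongating spermatid markers 2848 and 2986 CPM against 1960 CPM; their part in the Mettl14 value was not tested.

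**Figure D3:**
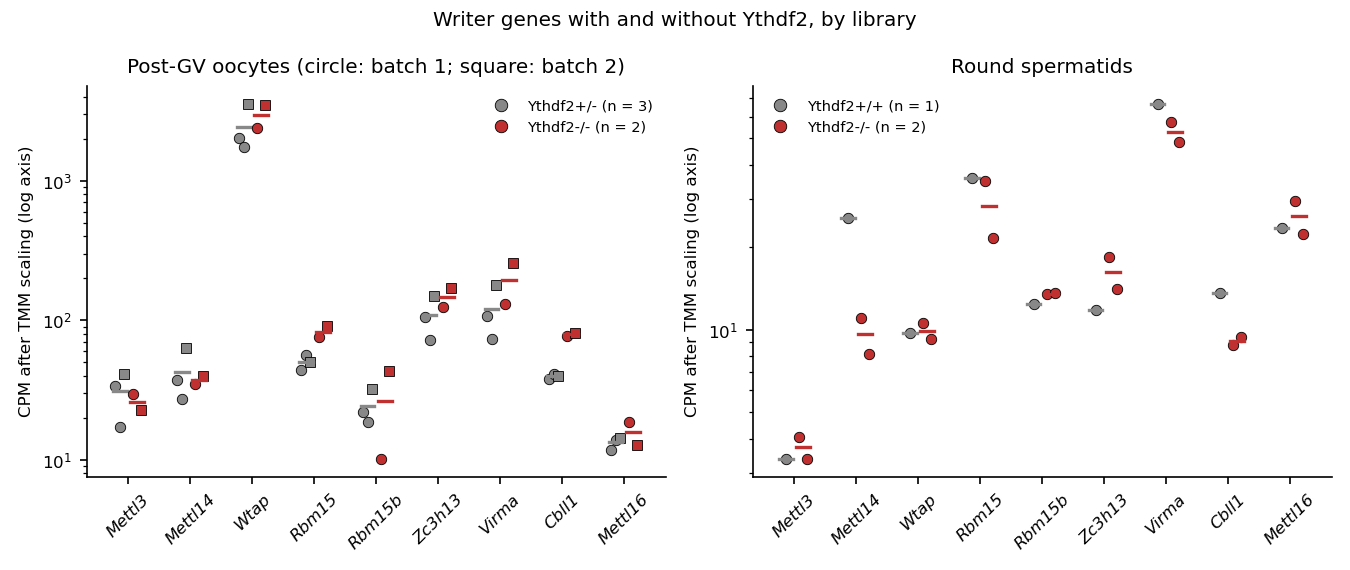
CPM after TMM scaling on a log axis for each of the 9 genes, with points for libraries and bars for group means, in post-GV oocytes (left, circles for batch 1 and squares for batch 2) and round spermatids (right). In the oocytes Cbll1 at 77.2 and 81.7 CPM stands above the heterozygotes in both batches, and in the spermatids Mettl14 at 11.04 and 8.18 CPM lies below the control at 25.7 CPM.

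Levels per kilobase of merged exons (CPM per kb) in the control cells put the 9 genes in different orders in stem cells, oocytes and spermatids. Both oocyte stages had Wtap, Zc3h13, Virma and Cbll1 as the highest by mean, in that order, and Rbm15b and Mettl16 as the lowest. The 4 tables come from different library types and were normalized separately, so levels across cell types are descriptions, and fewer cells of a type cannot be told apart from less RNA per cell. In WT stem cells Mettl3 (27.0 ± 0.45, SD, n = 2), Wtap (22.6 ± 0.13) and Rbm15b (21.3 ± 0.16) were the highest and Virma (2.91 ± 0.24) the lowest. In GV controls Wtap stood alone at 166 ± 54.3 CPM per kb (SD, n = 4), followed by Zc3h13 (19.5 ± 1.65), Virma (16.0 ± 1.66) and Cbll1 (15.6 ± 1.99). The Cbll1 libraries overlapped with those of Zc3h13 and of Virma. In the spermatid control Virma (9.37) was the highest and Mettl3 (0.662) the lowest, from 1 library.

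Wtap had the widest range of the 9. Its order over the control cells was post-GV oocytes (390 ± 157 CPM per kb, SD, n = 3), GV oocytes (166), stem cells (22.6) and spermatids (1.55), with no overlap between neighbours. Over all 12 groups its log2 CPM spanned 8.21, more than 94.4% of the 9129 genes tested in all 4 experiments. Mettl3 spanned 6.29, including its own knockouts, and the other 7 members spanned 2.84 (Rbm15) to 4.76 (Cbll1).

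Mettl3 ran in another order, with stem cells at 27.0, post-GV oocytes at 6.10 ± 2.45, GV oocytes at 5.37 ± 2.33 and spermatids at 0.662 CPM per kb; the 2 oocyte stages overlapped. Mettl14 was likewise highest in stem cells and lowest in spermatids, over a narrower range. It was at 14.0 ± 0.06 in stem cells, 7.81 ± 1.68 in GV and 5.77 ± 2.53 in post-GV oocytes, which overlapped, and 3.46 in spermatids. By mean its oocyte stages came in the opposite order to those of Mettl3. With the longest transcript as the length, Mettl3 would read 63.5 and Wtap 44.3 CPM per kb in WT stem cells, since their merged exons are much longer than any 1 transcript; the other 7 members move by under 1.5-fold.

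Among the adaptors and scaffolds, Rbm15 was the most even, at 12.04 ± 0.26 CPM per kb in stem cells, 7.04 ± 1.37 in GV and 6.79 ± 0.85 in post-GV oocytes and 4.83 in spermatids, the oocyte stages overlapping. Rbm15b had a wider spread, at 21.3, 4.78 ± 2.04, 3.75 ± 1.11 and 1.91 in the same order; the oocyte stages overlapped, and the spermatid value fell inside the range of the GV libraries. Virma ran the other way, with 16.8 ± 7.57 in post-GV and 16.0 in GV oocytes, 9.37 in spermatids and 2.91 in stem cells. Zc3h13 was at 19.5 in GV oocytes, 17.4 ± 6.07 in post-GV oocytes, 12.6 ± 0.19 in stem cells and 1.89 in spermatids; the post-GV libraries overlapped with both neighbours.

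Cbll1 was level between GV oocytes (15.6) and stem cells (15.1 ± 1.21), lower in post-GV oocytes (9.91 ± 0.43) and lowest in spermatids (3.39 CPM per kb). Mettl16 was at 11.4 ± 0.31 in stem cells, 1.71 in spermatids, 1.37 ± 0.31 in GV and 0.966 ± 0.10 in post-GV oocytes, and the spermatid value fell inside the range of GV libraries. Mettl3, Mettl14, Rbm15, Rbm15b and Mettl16 had a higher mean in WT stem cells than in GV controls. The share of all genes for which this held was not counted.

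**Figure D4:**
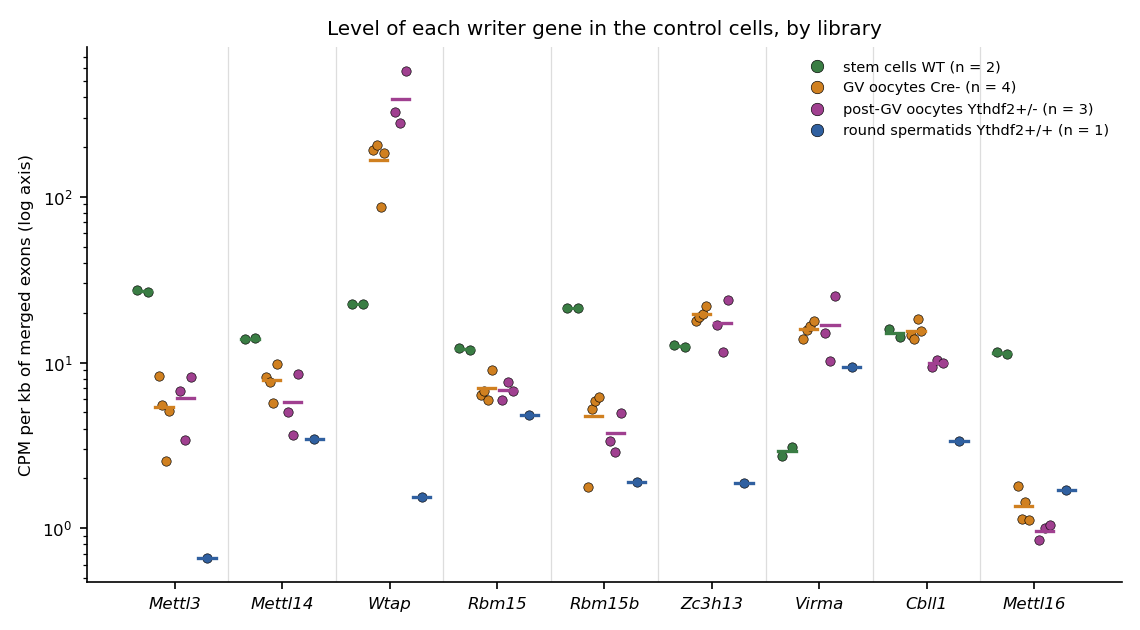
CPM per kilobase of merged exons on a log axis for each of the 9 genes in the control libraries of each cell type, with points for libraries and bars for group means. Wtap reaches 166 and 390 CPM per kb in the oocyte stages and 1.55 in spermatids, and Virma is lowest in stem cells at 2.91.

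Over the 12 group means, which share depth and library type within a cell type, the closest pair of members by Pearson r of log2 CPM was Rbm15b and Mettl16 (0.94), and the most opposed was Virma and Mettl16 (-0.95). Mettl3 and Mettl14 had an r of 0.74, and Mettl3 and Wtap 0.12. By the same measure the genes most like Mettl14 included Vps39 (r of 0.997) and Dlgap5 (0.991), those most like Wtap were Stradb, Ctage5 and Tmem109 (0.992 to 0.993) and those most like Mettl3 included Zfp534 (0.947) and Bora (0.945), among 9076 genes. These values are given with no test.

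Genes that read or erase the mark were counted from a list of 14. In Mettl3-/- stem cells 3 rose and 1 fell, 4 of 14 beside 30.4% of all genes called: Ythdf2 rose 2.45-fold (adjusted p = 9.75e-07), the nuclear reader Ythdc1 1.56-fold and the reader Igf2bp2 1.21-fold, while Hnrnpc fell to 0.746 of WT. In Mettl3 conditional knockout GV oocytes 2 of 13 tested rose and 2 fell, beside 28.8% of all genes called, namely Ythdf2 (2.78-fold) and Ythdf1 (2.69-fold) upward and the reader Ythdf3 (0.463 of control) and the eraser Alkbh5 (0.498) downward. In the triple knockout Igf2bp3 alone of 14 was called, at 0.726 of WT, beside 25.1% of all genes. In the other 5 comparisons with controls none of the list was called. Few genes of any kind were called there: 3.45%, 1.91% and 2.84% in Ythdf1-/-, Ythdf2-/- and Ythdf3-/- stem cells, 0% in post-GV oocytes and 4.90% in round spermatids. The median log2 change of the list was 0.14 in Mettl3-/- stem cells and 0.10 in the GV oocytes, beside 0.00 and 0.04 over all genes.

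Genes of the S-adenosylmethionine cycle, which makes the methyl donor, were counted from a list of 9. Mat2a, which encodes the synthetase subunit whose mRNA Mettl16 methylates, rose 1.97-fold in Mettl3 conditional knockout GV oocytes (adjusted p = 0.0066), the 1 call among 8 tested there, beside 28.8% of all genes. In Mettl3-/- stem cells Ahcy, which clears S-adenosylhomocysteine, rose 1.46-fold (adjusted p = 0.00448) as the 1 call of 9, beside 30.4% of all genes. In the triple knockout Ahcy rose 1.39-fold (adjusted p = 0.025). It was the 1 upward call there, with 1 downward call among the 9, beside 25.1% of all genes called. In Ythdf2-/- round spermatids Ahcy was at 0.24 of the control, which is 1 library. It was the 1 call of 9 there, beside 4.90% of all genes.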

How the data were processed

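The members and gene lists were chosen with earlier results of these data known. The authors deposited raw counts per gene. The submitters' processing notes name mm10 as the genome build, STAR 2.4.2a, cutadapt, DESeq2 and CASAVA 1.8.2 as tools; for the counter, annotation and strand setting, the sources used here give nothing. The tables list genes with at least 6 counts in some library. Deposited normalized signal values and the authors' batch-adjusted log2 values served only to read the post-GV batches (over 4903 genes with more than 200 counts in every library, r of 0.835 to 0.972 within a batch and -0.962 to -0.914 between). Log2 fold changes and adjusted p-values deposited by the authors are quoted as theirs. All per-sample columns were matched by label, with 0 left over; 1 post-GV title repeats replicate 2 where its bracketed name gives 3, which was used.

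The 4 experiments had separate edgeR 4.0.16 fits (R 4.3.3): TMM scaling, low counts removed with filterByExpr by group, and the robust quasi-likelihood F test. A gene was called when its p, adjusted by Benjamini-Hochberg across the genes tested, was under 0.05. The 12 stem cell libraries shared 1 fit. A standard error is the larger of the quasi-likelihood error and the counting error of the 2 groups' summed counts. Nothing says that replicates of a stem cell genotype were separate cultures, so their p-values cover only the spread between these libraries. Alternatives were RLE scaling, no filter, a filter at 30 counts, DESeq2 1.42.0, leaving out libraries, the replicate number as a block and, for post-GV oocytes, batch. Lengths, positions and sequences came from GENCODE M21 (GRCm38), which matched 98.9% to 99.2% of symbols per table. The text names all 9 members, the called genes of each list (the 4 with the smallest p where there were more), and the 3 genes most like Mettl3, Mettl14 and Wtap. Some genes that this rule names are not reported here. The comparison of Mettl3-/- with triple-knockout cells and the within-batch post-GV ratios were added after the data were seen. The fit was also run on simulated counts whose spread was estimated from these same libraries. Its outcome is not given here, and no result above rests on it.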

Additional observations from a re-analysis of the deposited data

Results flagged for a closer look

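Under Ythdf2 loss, 3 members lay on opposite sides of their controls in different cells, every knockout library on 1 side of every control library. Of the 9470 genes tested in all 3 kinds of cell 25.1% did so, against 3 of 9 members, so this is close to the background. Cbll1 differed by -0.34 in stem cells, 1.01 in post-GV oocytes and -0.57 in round spermatids on the log2 scale. Rbm15 differed by 0.73 in post-GV oocytes and -0.34 in round spermatids. Mettl3 differed by -0.11 in stem cells and 0.15 in round spermatids. None of these values was called, the spermatid control is 1 library, and the differences between cell types were not tested. In the 4 GV control libraries no member had a library past the limit for an outlier, with Wtap nearest (0.819 against 0.829).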

How the results depend on the processing

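The number of members called moved by more than 1.5 times under 2 alternatives: from 4 to 2 in GV oocytes without control replicates 2 and 3, and from 1 to 0 in round spermatids with DESeq2. No value that was called in either analysis changed sign. Of the single log2 changes, 12 calls were lost, all of Zc3h13 in Mettl3-/- stem cells, Mettl16 and Rbm15 in GV oocytes and Mettl14 in spermatids, as given above; the cause was not tested. Another 42 values that were never called changed sign or, for Rbm15 in spermatids (-0.73 without Ythdf2-/- replicate 1), moved. Among those that changed sign, the values farthest from 0 were Rbm15b in post-GV oocytes (-1.28 without Ythdf2-/- replicate 2, -1.03 in the first batch, -0.37 with the batch term) and Virma in Ythdf2-/- stem cells (-0.36 without replicate A). All-gene counts depended on the tool: DESeq2 called 1156 genes in place of 3630 in Mettl3-/- stem cells, 684 in place of 2996 in the triple knockout, 52, 10 and 25 in place of 412, 228 and 340 in the single knockouts, 613 in place of 2272 between Mettl3-/- and triple knockout, and 394 in place of 785 in spermatids, but more in GV oocytes (5253 in place of 3907) and post-GV oocytes (94 in place of 0). Leaving out a library gave as few as 193 to 237 (Ythdf1-/-), 54 to 123 (Ythdf2-/-), 112 to 200 (Ythdf3-/-), 1799 (triple knockout), 2319 (Mettl3-/-), 1352 (Mettl3-/- against triple knockout) and 2254 (GV oocytes). With the replicate number as a block the members called were 0 in each Ythdf knockout of stem cells, 4 in Mettl3-/- stem cells, 4 in GV oocytes and 0 in post-GV oocytes, and no call changed; all genes called went from 3907 to 4540 in GV oocytes and from 0 to 3 in post-GV oocytes. Same-numbered GV libraries deviated together with r of 0.417, 0.092 and 0.245 and stem cell letters with r of -0.000844 to 0.116, so the numbers were not taken to pair the samples, and Cre+ replicate 2 correlated better with control 3 (0.132) than with control 2; in post-GV oocytes the r were 0.432 and -0.606. No block could be fitted in spermatids, whose control carries no number. Spermatids without a knockout library leave 1 against 1, a value with no test, at -1.65 and -1.22 for Mettl14. Stem cell depth limits Virma most, at 12 to 25 counts a library.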

Other observations

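Other RNA methyltransferases were counted from a list of 27. In Mettl3-/- stem cells 4 of 26 tested rose and 1 fell, beside 30.4% of all genes called. Of the 4 with the smallest p, Cmtr2, which methylates the second cap nucleotide, was 2.12-fold higher (adjusted p = 1.33e-05), Mettl15 1.56-fold and Mettl4 1.5-fold, and Mettl17 fell to 0.615 of WT. In the triple knockout 3 of 26 tested rose and 1 fell, beside 25.1% of all genes called. Mettl15 (1.54-fold), the ribosomal RNA enzyme Mettl5 (1.39-fold) and the nucleolar methyltransferase Fbl (1.29-fold) rose, while Dimt1 fell to 0.402 of WT. The Mettl3-/- and triple knockout comparisons share the WT libraries. In Mettl3 conditional knockout GV oocytes 4 of 25 rose and 3 fell, beside 28.8% of all genes called; among the 4 with the smallest p, Trmt61a was 5.76-fold, Nsun5 4.85-fold, Nsun2 2.15-fold and Mettl8 1.83-fold higher. Mettl8 was at 0.152 of control in Ythdf2-/- round spermatids (adjusted p = 0.027), the 1 call of 26 beside 4.90% of all genes. Nsun6 was at 0.421 of WT in stem cells labelled Ythdf1-/- (adjusted p = 0.02), the 1 call of 26 beside 3.45%. The median log2 change of the list was 0.00 in Mettl3-/- stem cells and 0.12 in the GV oocytes, beside 0.00 and 0.04 over all genes.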
